A study of Mus musculus with 6 samples.

Results

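A stretch of mouse chromosome 13, 20 Mb long and running from 76044729 to 96044729 in mm10, was examined gene by gene in embryonic fibroblasts with and without Stc1. Its members were the loci that carried a gene name, began inside the stretch and held at least 20 fragments summed over the 6 libraries, apart from Pde8b, Vcan, Thbs4 and Cox7c. That rule kept 62 of the 39495 loci in the deposited files. Of the 124 named loci in the stretch, 58 held under 20 fragments and 4 were set aside by name. The member nearest to the limit was 1700023H06Rik with 25 fragments, and the nearest loci outside were Dmgdh and AC207128.2 with 16 fragments each. The window was chosen by the knockout against wild-type differences of the same libraries, as a region rich in them. Those differences are therefore given as descriptions, and p-values of the same contrast appear only as counts or lowest values beside those of all loci.

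The cells were mouse embryonic fibroblasts labelled C57BL/6, in 3 libraries of genotype STC1+/+ (wild type, WT) and 3 of genotype STC1-/- (knockout, KO). All were grown in DMEM with serum, and no treatment or embryo age is labelled; the disrupted part of Stc1 is not given in the labels. Polyadenylated RNA was sequenced with a stranded kit. Nothing in the labels ties a library to a separate embryo, so the spread between libraries may be partly technical, and the numbers 1 to 3 are names only. Replicate 1 of one genotype is not a partner of replicate 1 of the other.

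Neighbouring genes on a chromosome can share regulatory elements, and genes that start back to back can share a promoter. Most neighbours in mammals are nonetheless controlled separately and serve unrelated functions. The window is of that mixed kind. It holds a nuclear receptor (Nr2f1), a muscle, neural and myeloid transcription factor (Mef2c), the receptors through which thrombin and related proteases signal (F2r, F2rl1, F2rl2), regulators of RAS (Rasa1, Rasgrf2), DNA repair genes (Msh3, Xrcc4) and many housekeeping genes of membrane traffic. By GENCODE M21 on the same build, 52 members were protein-coding, 5 antisense RNAs, 3 processed pseudogenes, 1 a lncRNA from a shared promoter and 1 a processed transcript.

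The 6 libraries held 21882092 to 71488701 estimated fragments, of which 0.212% to 0.233% fell on the members. Stc1 itself stood at 31.8, 6.82 and 7.62 CPM in WT replicates 1 to 3. It stood at 0.282 CPM in KO replicate 1, with 0 fragments in KO replicates 2 and 3. CPM here means fragments relative to the library total, after normalization. The libraries differed in markers of macrophages, cells that often accompany fibroblast cultures. Of the listed macrophage markers, 18 were found, but 2 of them (Cd68 and Fcer1g) share a locus with other genes in the files. These 2 loci held 382 of the 407 CPM that the 18 summed to in WT replicate 1. Summed over the 16 markers with a locus of their own, a selection made after seeing the data, the level was 24.6, 1260 and 12500 CPM in WT and 1320, 109 and 140 CPM in KO replicates 1 to 3. WT replicate 3 was the highest. By this sum KO replicate 1 and WT replicate 2 were next and close, but by the mean log2 CPM of the 16 they stood at 4.32 and 5.79. None of the 18 was at 0 in any library. C1qa, a complement gene of resident macrophages, stood at 0.255, 90.5 and 810 CPM in WT and at 2.91, 0.188 and 0.377 CPM in KO replicates 1 to 3. Fibroblast markers, 9 in number, summed to 11100, 31100 and 11900 CPM in WT and 5540, 9030 and 8690 CPM in KO replicates 1 to 3. By this sum every KO library lay below every WT library. Their mean log2 CPM overlapped between genotypes, at 8.79, 9.98 and 9.44 in WT and 8.04, 8.97 and 8.67 in KO. By single markers, Col1a1, Col1a2 and Vim, the highest of them in every WT library, were lower in every KO library. The other fibroblast markers overlapped between genotypes. Among these, Dcn stood at 475, 216 and 797 CPM in WT and at 1460, 1390 and 430 CPM in KO. In bulk RNA, fewer cells of a type and less RNA per cell cannot be told apart.

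Measured across the window, the differences were mostly small. edgeR tested 60 of the 62 members, and the other 2, F2rl2 and 1700023H06Rik, fell below its filter on low counts. Their median log2 fold change, KO minus WT, was -0.20, against -0.05 over all 15673 loci tested and -0.06 over the 573 tested loci in the rest of chromosome 13. Of the 60, 42 (70.0%) were negative and 18 positive, where 55.6% of all loci were negative. The change was smaller than 0.5 on the log2 scale in 43 members (71.7%, and 71.3% of all loci).

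The genotypes did not overlap in 8 members, 3 with every KO library above every WT library and 5 with every KO library below. That is 13.3% of members, beside 10.6% of all loci tested (5.18% above and 5.44% below). A fitted difference of at least 2-fold was found in 3 members toward KO and 7 toward WT, or 5.0% and 11.7%, beside 4.49% and 6.64% of all loci. An unadjusted p under 0.05 in edgeR was held by 9 members (15.0%), beside 3.87% of all loci. These measures come from the contrast on which the window was picked. Neither edgeR nor DESeq2 called a member at an adjusted p under 0.05. Over all loci edgeR called 0.0%, with a lowest adjusted p of 0.763 among members, and DESeq2 called 0.322%, with a lowest adjusted p of 0.358 among members. The share at least 2-fold higher lay near that of all loci, and the shares that were negative, at least 2-fold lower or of low unadjusted p lay above it. Nothing further is read from these shares, and the window is called here by its position.

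Of the exceptions, Pde8b, a phosphodiesterase gene, stood at 20.2, 26.1 and 23.7 CPM in WT and 8.92, 9.95 and 9.56 CPM in KO, with no overlap. Thbs4, a thrombospondin gene, rested on WT replicate 2, with 34.0 CPM there and at most 3.12 CPM in every other library. Vcan and Cox7c had log2 fold changes of 0.20 ± 0.37 and 0.10 ± 0.19 (SE).

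**Figure D1:**
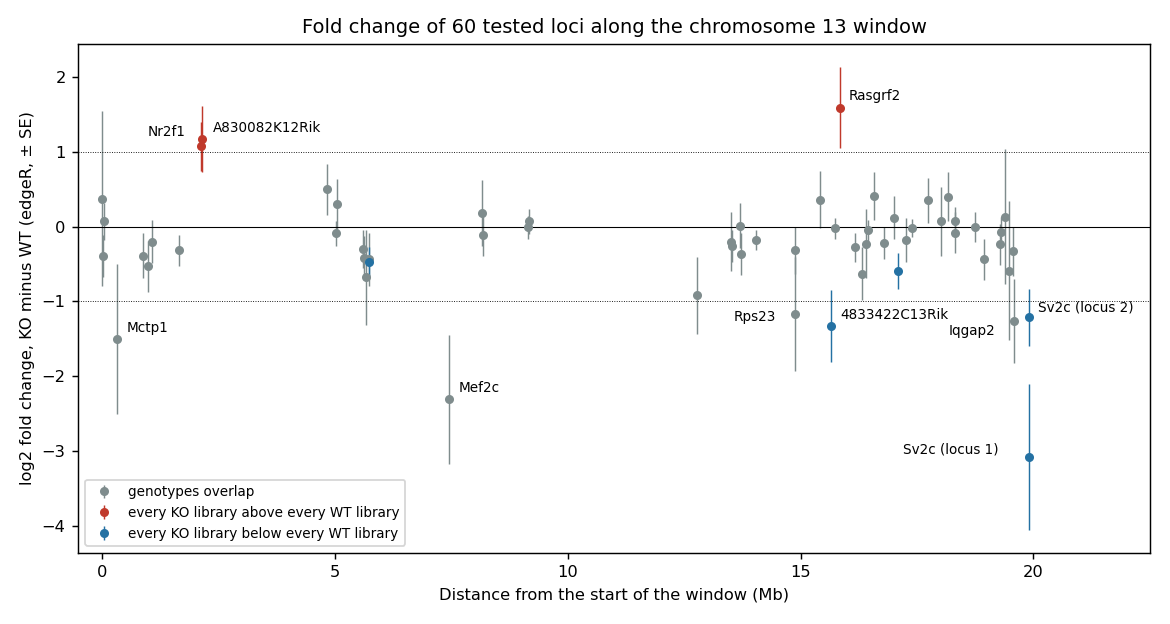
The log2 fold change (KO minus WT, edgeR, bars ± SE) of each tested locus is plotted against its distance in Mb from the start of the window, with dotted lines at 2-fold. Of the 60 loci, 3 lie above the upper line and 7 below the lower one. Members without overlap between genotypes are coloured (3 red, 5 blue), and Nr2f1 lies beside A830082K12Rik, and the Sv2c loci beside each other.

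Nr2f1 and the RNA that starts across from it were both higher in every KO library. Nr2f1 encodes COUP-TF1, an orphan nuclear receptor that patterns the embryonic nervous system and mesenchyme. The locus (XLOC_009380) lies on the minus strand from 78188973 to 78200949. Nr2f1 stood at 21.7, 13.6 and 9.85 CPM in WT replicates 1 to 3 and at 37.7, 27.4 and 29.7 CPM in KO replicates 1 to 3. Every KO library lay above every WT library, and the closest were KO replicate 2 and WT replicate 1. The means were 31.6 ± 5.41 against 15.0 ± 6.07 CPM (SD, n = 3 each), and the fitted log2 difference was 1.07 ± 0.33 (SE).

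A830082K12Rik, an antisense RNA of 3 exons on the plus strand from 78198017 to 78236845, had the same order of libraries from lowest to highest. It stood at 5.27, 2.76 and 1.84 CPM in WT and 8.41, 5.98 and 7.83 CPM in KO, again without overlap, with a log2 fold change of 1.17 ± 0.44. The files join it with Gm8327, and the pair cannot be separated. The loci of Nr2f1 and A830082K12Rik overlap by 2933 bases. The labels and headers do not say whether fragments were counted by strand, so reads from the shared stretch cannot be assigned to one of them with certainty. In both genes WT replicate 3, the library with the most macrophage marker RNA, was the lowest, and WT replicate 1, with the least, was the highest of the WT libraries. Among the KO libraries the order was not the same: KO replicate 1, with the most, was the highest of all 6. Without the 3 macrophage-rich libraries (WT replicates 2 and 3 and KO replicate 1) each had a log2 fold change of 0.39. That fit kept only WT replicate 1, the highest WT library for both genes, and left out the highest KO library. A smaller difference was therefore built into it. How far macrophage RNA bears on the levels of these 2 loci was not tested.

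Because these neighbours had the same order of libraries, the promoter windows that RefSeq gives for them are shown, each 250 bases before to 50 after a transcript start (GRCm38.p6, the mm10 build). The upstream RefSeq start of Nr2f1 and that of A830082K12Rik lie 856 bases apart, each inside the other's locus, and a second Nr2f1 start is not printed. Capitals mark GGGCGG, the GC box bound by Sp1-type factors, and CCAAT, the box bound by NF-Y, on either strand. The Nr2f1 window is chr13:78198824-78199123 on the minus strand and that of A830082K12Rik is chr13:78197767-78198066 on the plus strand.
Nr2f1: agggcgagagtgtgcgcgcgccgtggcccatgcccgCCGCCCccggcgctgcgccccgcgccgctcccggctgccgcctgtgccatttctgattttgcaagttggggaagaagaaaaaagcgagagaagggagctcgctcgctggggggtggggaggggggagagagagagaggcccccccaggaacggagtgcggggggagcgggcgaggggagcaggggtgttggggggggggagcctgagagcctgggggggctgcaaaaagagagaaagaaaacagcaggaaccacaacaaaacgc
A830082K12Rik: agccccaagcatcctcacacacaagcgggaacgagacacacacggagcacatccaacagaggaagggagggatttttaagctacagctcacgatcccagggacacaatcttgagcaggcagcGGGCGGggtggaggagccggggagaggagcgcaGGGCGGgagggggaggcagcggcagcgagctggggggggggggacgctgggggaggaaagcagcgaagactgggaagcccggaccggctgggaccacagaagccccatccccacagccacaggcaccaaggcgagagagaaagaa
The Nr2f1 window held 1 GC box and 23 CpG dinucleotides, and the A830082K12Rik window 2 GC boxes and 16 CpG. Neither held a CCAAT box or the TATA box letters TATAAA. Promoter entries existed for 50 of the 62 member loci, 58 windows in all. GGGCGG occurred in 33 of them (56.9%, against 35.7% of all 32851 RefSeq windows), CCAAT in 15 (25.9%, against 37.4%) and TATAAA in 5 (8.62%, against 13.6%). These sets are unlike: members held at least 20 fragments, while the RefSeq windows were taken whatever their expression. Some members also have several windows, so the shares are not read as a trait of the stretch. A match of letters is a description and not a bound site.

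**Figure D2:**
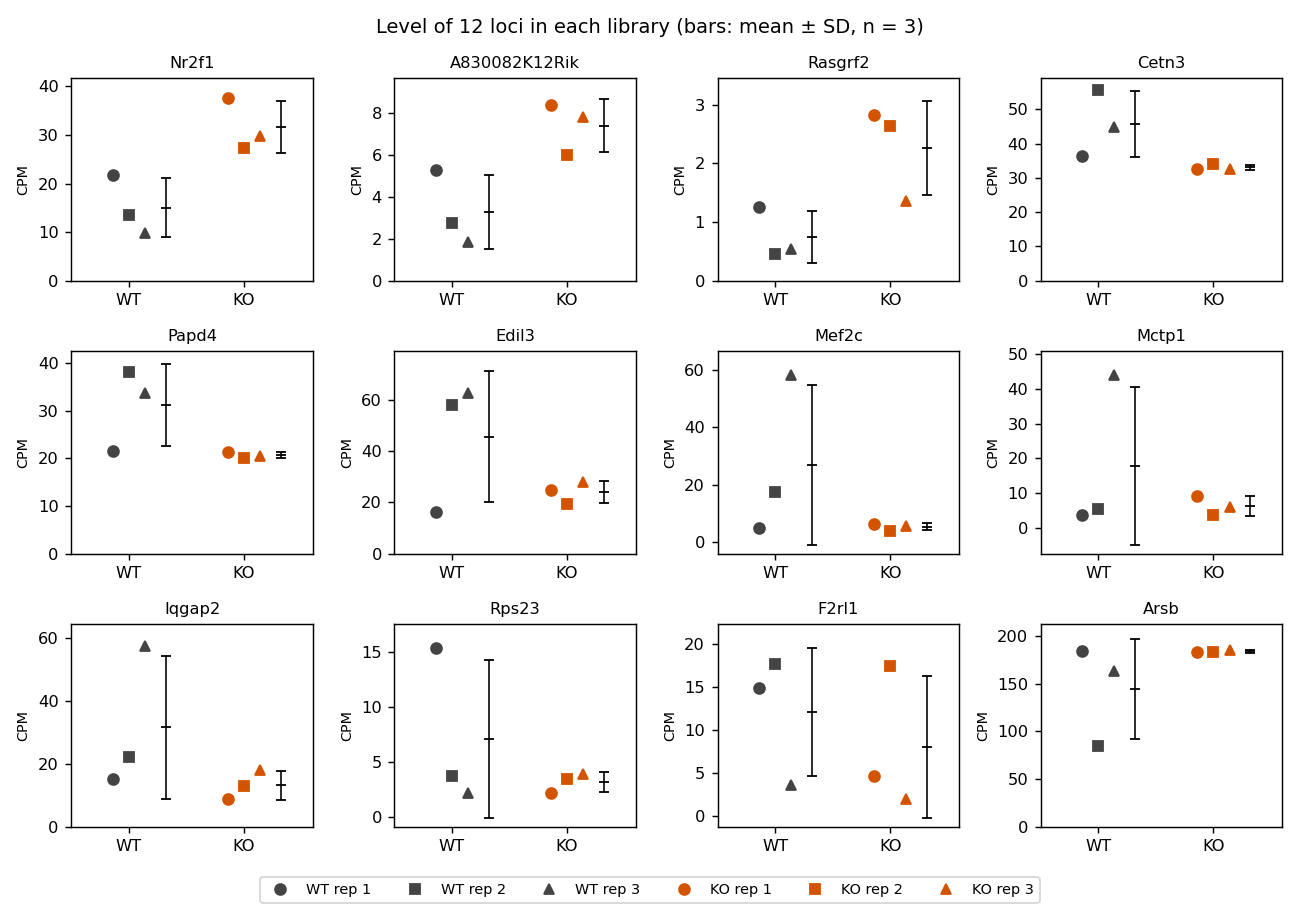
Each panel plots the CPM of 1 locus in the 3 WT and 3 KO libraries (marker shape gives the replicate), with the mean ± SD beside each group. Nr2f1, A830082K12Rik and Rasgrf2 are higher in every KO library, Cetn3 and Papd4 lower in every KO library, and Mef2c, Mctp1 and Iqgap2 are set apart by WT replicate 3.

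Rasgrf2, an exchange factor that activates RAS and RAC, was the third member above in every KO library, at a level too low to meet the naming rule and chosen after its values were seen. It had 88, 19 and 26 fragments in WT and 60, 98 and 61 in KO replicates 1 to 3, or 1.25, 0.445 and 0.538 CPM against 2.82, 2.63 and 1.35 CPM. WT replicate 1 and KO replicate 3 lay close together, and the log2 fold change was 1.59 ± 0.54. On the deposited FPKM scale the genotypes of Rasgrf2 overlapped. Its partner in the same pathway, Rasa1, a GTPase-activating protein that switches RAS off, was among the best expressed members, at 49.5 FPKM (fragments scaled by locus length and library size, which allows genes to be compared). Rasa1 stood at 153 ± 28.1 CPM in KO and 145 ± 7.12 CPM in WT (SD, n = 3 each) with overlapping libraries.

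On the WT side, the synaptic vesicle gene Sv2c was lower in every KO library and is listed in the files at 2 loci with the same first base, 95957786. Locus 2 (XLOC_009433) spans the annotated gene on the minus strand to 96132577, and locus 1 (XLOC_008722) is a stretch of 1804 bases on the plus strand within it. Locus 1 was named after its values were seen. It had 18, 15 and 18 fragments in WT and 0, 0 and 4 in KO. With 0 fragments, a level of up to 0.141 CPM in KO replicate 1 and 0.0805 CPM in KO replicate 2 remains possible by counting error alone. Locus 2 stood at 0.722, 0.726 and 0.704 CPM in WT and at 0.188, 0.322 and 0.399 CPM in KO, a log2 fold change of -1.21 ± 0.38. Every KO library was below every WT library at both loci, but these are 55 and 150 fragments in all, and they occupy the same bases, so they are not independent of each other.

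Another thin locus, 4833422C13Rik, an antisense RNA also named after its values were seen, had 24, 20 and 12 fragments in WT and 3, 7 and 4 in KO. It too was lower in every KO library. Ssbp2, which encodes a DNA-binding cofactor of LIM-domain complexes, overlaps it by 4084 bases and went the other way, at 25 ± 6.84 CPM in KO and 19.5 ± 8.49 CPM in WT, with overlap. Of the 8 members without overlap, 4 had a mean under 2 CPM: Rasgrf2, 4833422C13Rik and both Sv2c loci.

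The remaining members without overlap were well expressed and differed little. Cetn3 encodes centrin-3, a calcium-binding protein of centrosomes. It stood at 36.5, 55.8 and 44.8 CPM in WT and at 32.7, 33.9 and 32.5 CPM in KO. Papd4 (Tent2 in current annotation), a cytoplasmic poly(A) polymerase, stood at 21.6, 38.2 and 33.6 CPM in WT and 21.4, 20.1 and 20.4 CPM in KO. KO libraries were tightly grouped and the WT libraries wide, with WT replicate 1 close to KO in both genes, only just above KO replicate 1 for Papd4 (21.6 and 21.4 CPM). The log2 fold changes were -0.47 ± 0.19 and -0.59 ± 0.24. On the FPKM scale Papd4 overlapped between genotypes, while Cetn3 did not. Without the macrophage-rich libraries the values were -0.14 for Cetn3 and -0.09 for Papd4.

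The promoters of Cetn3 (chr13:81782997-81783296, plus strand) and Papd4 (chr13:93192368-93192667, minus strand) are shown for contrast with the pair above, since these were the other well-expressed members without overlap.
Cetn3: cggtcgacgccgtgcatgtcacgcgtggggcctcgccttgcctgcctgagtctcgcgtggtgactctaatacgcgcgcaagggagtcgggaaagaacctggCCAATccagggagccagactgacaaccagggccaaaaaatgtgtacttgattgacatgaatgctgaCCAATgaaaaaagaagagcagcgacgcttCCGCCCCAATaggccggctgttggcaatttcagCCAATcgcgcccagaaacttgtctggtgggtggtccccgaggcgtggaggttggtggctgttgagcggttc
Papd4: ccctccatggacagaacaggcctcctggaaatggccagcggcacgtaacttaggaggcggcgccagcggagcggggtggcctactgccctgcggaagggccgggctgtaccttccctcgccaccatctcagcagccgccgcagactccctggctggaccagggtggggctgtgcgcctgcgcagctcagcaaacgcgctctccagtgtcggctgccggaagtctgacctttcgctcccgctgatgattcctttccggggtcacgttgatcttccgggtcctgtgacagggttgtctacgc
The Cetn3 window held 4 CCAAT boxes and 1 GC box. The GC box and 1 of the CCAAT boxes overlap in a single run of capitals. The Papd4 window held neither motif. These windows had 22 and 23 CpG.

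A different pattern was seen in Mef2c, Mctp1 and Iqgap2, where 1 WT library stood far above the rest. Mef2c encodes a MADS-box transcription factor of muscle, neurons, endothelium and myeloid cells. It stood at 4.98, 17.5 and 58.3 CPM in WT and at 6.39, 4.02 and 5.83 CPM in KO. WT replicate 3 held the highest level, WT replicate 2 followed, and WT replicate 1 lay inside the KO range. The log2 fold change was -2.31 ± 0.86 with all libraries, -1.05 without WT replicate 3 and -0.02 without the 3 macrophage-rich libraries. Mef2c was marked FAIL by the authors' software in 1 library.

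Mctp1, a membrane protein gene with calcium-binding C2 domains, stood at 3.89, 5.57 and 44.0 CPM in WT and 9.25, 3.62 and 5.99 CPM in KO. Apart from WT replicate 3 the libraries overlapped, with KO replicate 1 the next highest. Its log2 fold change of -1.50 ± 1.0 turned to 0.41 without WT replicate 3. Iqgap2, a scaffold for RAC and CDC42, stood at 15.1, 22.1 and 57.4 CPM in WT and 8.64, 12.8 and 17.9 CPM in KO, or -1.26 ± 0.56. KO replicate 3 lay above WT replicate 1, so the genotypes overlapped. Without WT replicate 3 the value was -0.50, and without the macrophage-rich libraries 0.02.

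WT replicate 3 held the most macrophage marker RNA (12500 CPM over the 16 markers), WT replicate 2 and KO replicate 1 held 1260 and 1320 CPM, and the others 24.6 to 140 CPM. WT replicate 2 and KO replicate 1 differed in single markers: C1qa stood at 90.5 and 2.91 CPM, and Ctss, a lysosomal protease gene, at 141 and 440 CPM. Fits without all 3 of these libraries left 1 WT library, assumed to vary like the KO libraries. How far macrophage RNA accounts for the levels of these genes with all libraries in was not tested.

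The first annotated starts of Mef2c (chr13:83503784-83504083, plus strand) and Iqgap2 (chr13:95891873-95892172, minus strand) are shown. These members follow the same library, and the printed windows differ in CpG and GC box content.
Mef2c: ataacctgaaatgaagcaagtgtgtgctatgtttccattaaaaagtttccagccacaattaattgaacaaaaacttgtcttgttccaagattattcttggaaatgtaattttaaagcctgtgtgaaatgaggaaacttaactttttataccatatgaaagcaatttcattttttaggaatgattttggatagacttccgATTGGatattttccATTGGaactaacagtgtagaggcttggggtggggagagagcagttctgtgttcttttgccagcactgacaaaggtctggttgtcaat
Iqgap2: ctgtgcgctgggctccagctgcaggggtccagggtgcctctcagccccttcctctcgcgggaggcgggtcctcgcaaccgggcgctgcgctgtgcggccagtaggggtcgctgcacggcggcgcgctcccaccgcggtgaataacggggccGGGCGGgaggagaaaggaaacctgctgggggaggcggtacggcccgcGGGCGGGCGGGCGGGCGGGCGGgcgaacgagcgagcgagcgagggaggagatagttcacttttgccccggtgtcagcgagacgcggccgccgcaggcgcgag
The Mef2c window held 1 CpG, 2 CCAAT boxes and 1 match to TATAAA. The Iqgap2 window held 41 CpG and 6 GC boxes, most of them in overlapping repeats. RefSeq lists 3 starts for Mef2c, and only the first is printed. The window of the second held 10 CpG and 1 GC box, and that of the third 4 CpG and no GC box. Which start these cells use was not tested.

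Other members were also marked by WT replicate 3. Mblac2, a gene of the metallo-beta-lactamase fold family, stood at 11.4 CPM there and between 2.30 and 4.70 CPM elsewhere. Lhfpl2, a tetraspan membrane protein gene, was highest in WT replicate 3 and KO replicate 1, which were also the 2 libraries with the highest macrophage marker sum though not mean log2 level, at 349 and 295 CPM. It stood at 139 and 145 CPM in the other WT libraries and at 140 and 228 CPM in the other KO libraries. Lhfpl2 was the fifth member by level, at 43.1 FPKM, and its log2 fold change was 0.07 ± 0.46.

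Edil3 encodes a secreted integrin ligand of the extracellular matrix. Its level was 16.1 CPM in WT replicate 1 and 57.8 and 62.7 CPM in WT replicates 2 and 3. The KO libraries held 24.7, 19.3 and 28.0 CPM, between those WT levels. The log2 fold change was -0.92 ± 0.51 with all libraries and 0.56 without the macrophage-rich ones. The other member listed for matrix and adhesion, the hyaluronan link protein gene Hapln1, was barely expressed at 0.0832 FPKM.

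WT replicate 2 was low for a further set. Arsb encodes the lysosomal enzyme arylsulfatase B. It stood at 185, 84.7 and 163 CPM in WT, and at 183, 183 and 186 CPM in KO, so the 3 KO libraries were nearly identical and WT replicate 2 lay far below. Scamp1, a carrier membrane protein of the secretory pathway, stood at 105, 47.4 and 113 CPM in WT and 116, 106 and 127 CPM in KO. Arrdc3, an arrestin-domain adaptor that sends receptors for degradation, stood at 40.0, 22.4 and 49.1 CPM in WT and 42.5, 46.5 and 69.2 CPM in KO. Their log2 fold changes were 0.35 ± 0.30, 0.40 ± 0.33 and 0.50 ± 0.34. Without WT replicate 2 they were 0.09, 0.11 and 0.26. On the FPKM scale Arsb and Scamp1 had no overlap between genotypes.

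Rps23, a ribosomal protein gene, was set apart by WT replicate 1. It stood at 15.4, 3.75 and 2.21 CPM in WT and 2.16, 3.46 and 3.88 CPM in KO, so 1 library carried the difference. The log2 fold change was -1.17 ± 0.76 with all libraries and 0.09 without WT replicate 1. Ribosomal protein genes have near-identical processed copies, among which reads can be divided, and a level of 6.65 FPKM for such a gene is uncertain for that reason. The same holds for the processed pseudogenes Gm8399, Gm8185 and AC154460.2. Gm8399 was the second member by level, at 77.5 FPKM, with 89.8, 120 and 83.8 CPM in WT and 88.0, 96.0 and 91.2 CPM in KO.

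The genes of the protease-activated receptors lie near each other at the distal end, with F2rl2 inside the Iqgap2 locus on the opposite strand. These receptors are cut by thrombin or trypsin-like proteases, which unmasks a tethered ligand. F2r, the thrombin receptor PAR1, was the best expressed member at 105 FPKM. It stood at 549, 577 and 282 CPM in WT and 329, 472 and 319 CPM in KO, with WT replicate 3 the lowest of all and the genotypes interleaved (-0.33 ± 0.33). F2rl1, the trypsin and tryptase receptor PAR2, differed 9.27-fold between its highest and lowest library, a range passed among members of at least 2 CPM by Mef2c and Mctp1. It stood at 14.9, 17.7 and 3.58 CPM in WT and 4.65, 17.4 and 1.91 CPM in KO. WT replicates 1 and 2 and KO replicate 2 were high and the remaining 3 low, which divided each genotype. Its log2 fold change was -0.59 ± 0.93 with all libraries and -1.89 without KO replicate 2. F2rl2, the receptor PAR3, had 53 fragments in all and was not tested. Its whole locus of 5887 bases overlaps Iqgap2. Whether fragments were counted by strand is not given, so those fragments cannot be assigned to F2rl2 with certainty.

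The small GTPase regulators and scaffolds differed little apart from Rasgrf2 and Iqgap2. Of the 7 genes listed for that role, 3 were positive and 4 negative with a median of -0.02. Homer1, a synaptic scaffold that also binds calcium channels, stood at 21.9 ± 5.86 CPM in KO and 24.9 ± 6.74 CPM in WT. Jmy, an actin nucleator and p53 cofactor, was nearly flat at 42.7 ± 2.33 and 43.4 ± 1.27 CPM (SD, n = 3 each). Aggf1, an angiogenic factor gene, stood at 51.0 ± 2.61 and 53.5 ± 12.8 CPM.

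Membrane traffic and lysosome genes were split evenly, with 4 of 8 positive and a median of 0.01. Besides Arsb and Scamp1, Ap3b1, a subunit of the AP-3 sorting adaptor, stood at 151 ± 4.56 CPM in KO and 144 ± 30.5 CPM in WT. Serinc5, a lipid scramblase of the plasma membrane, was highest in KO replicate 3 at 55.3 CPM and between 24.4 and 34.8 CPM elsewhere. Its log2 fold change was 0.41 with all libraries and 0.05 without that one. Wdr41, part of the C9orf72 complex at lysosomes, was highest in WT replicate 3 at 58.3 CPM and between 28.1 and 32.8 CPM elsewhere. Wdr41 was marked FAIL in all 6 libraries. Atg10, an autophagy conjugation enzyme, and Zfyve16, an endosomal adaptor, had log2 fold changes of -0.32 and -0.05.

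The 3 DNA repair genes named here were lower on average in KO, and all overlapped between genotypes. Msh3, a mismatch repair protein gene, stood at 10.8 ± 0.48 CPM in KO and 13 ± 2.21 CPM in WT. Xrcc4, of DNA end joining, stood at 8.44 ± 1.15 and 10.9 ± 3.35 CPM. Ankrd32 (Slf1), a factor that brings the SMC5-SMC6 complex to damaged DNA, stood at 9.49 ± 1.89 and 13.7 ± 5.44 CPM.

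Several general housekeeping genes were close to equal. Ccnh, the cyclin of the CDK-activating kinase, stood at 29.7 ± 2.93 CPM in KO and 29.9 ± 2.22 CPM in WT. Zcchc9 stood at 28.3 ± 2.29 and 28.6 ± 1.68 CPM. Tbca, a folding cofactor for beta-tubulin and the third member by level at 65.2 FPKM, stood at 30.2 ± 2.96 and 30.5 ± 6.11 CPM. In 27 of the 60 tested members (45%, and 48.4% of all loci) the highest library was less than 2-fold above the lowest.

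Genes known from neural or sensory cells were low. Gpr98 (Adgrv1), the large adhesion receptor of hair cells, stood at 0.226 FPKM, Crhbp, which binds corticotropin-releasing hormone, at 0.167 FPKM, and the muscle protein gene Cmya5 at 0.254 FPKM. By level, 15 members had at least 10 FPKM, 32 had 1 to 10 FPKM and 15 had less than 1 FPKM.

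Across members the WT libraries spread more than the KO libraries, as they did genome-wide. The median SD of log2 CPM was 0.431 in WT and 0.268 in KO for members, against 0.434 and 0.191 for all loci. The SD was larger in WT in 44 of 60 members (73.3%) and in 81.3% of all loci. WT replicate 3 was the library farthest from the median of the other 5 in 25 members, 20 times above and 5 times below. That is 41.7% of members, against 36.6% of all loci. WT replicate 2 was farthest in 17 members (28.3%, against 39.1%), KO replicate 3 in 11 (18.3%, against 9.11%), and the other libraries in 1 to 3 each.

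WT replicate 3 was also the highest library in 25 of 60 members (41.7%, against 28.9% of all loci). Of the 42 members with a negative fold change, it was the highest in 23. Its median deviation from the 6-library median was 0.143 on the log2 scale over members and 0.001 over all loci. Without WT replicate 3 the median fold change of members was -0.07, with 36 of 60 negative, and 33 members were negative both with and without it. KO replicate 3 was the lowest library in 18 members (30.0%, against 14.6%).

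**Figure D3:**
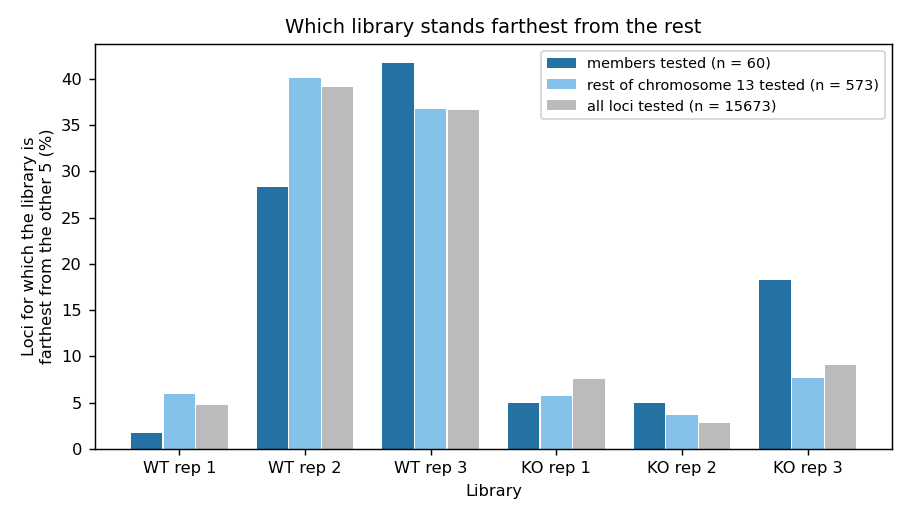
Bars give, for each library, the percentage of loci in which it is the one farthest from the median of the other 5 (log2 CPM), for members, the rest of chromosome 13 and all loci tested. WT replicate 3 leads among members with 41.7%, and KO replicate 3 reaches 18.3% of members against 9.11% of all loci.

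**Figure D4:**
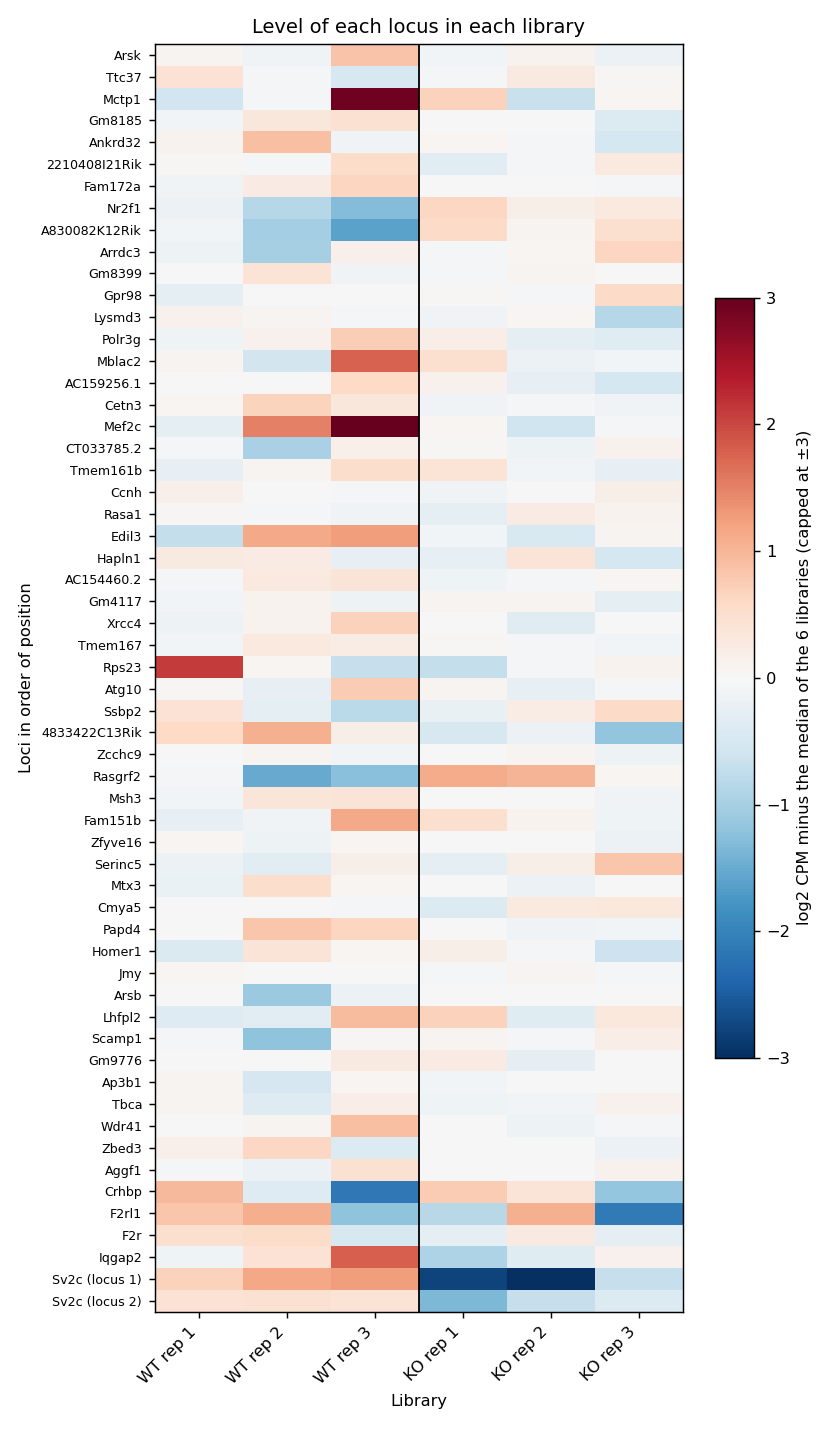
Rows are 58 of the 60 tested members in order of position and columns the 6 libraries, coloured by log2 CPM minus the median of the 6. Strong colour is spread over single cells. Among them are Mctp1, Mef2c and Crhbp in WT replicate 3 and Rps23 in WT replicate 1. Others are F2rl1 in KO replicate 3 and Sv2c locus 1 in KO replicates 1 and 2.

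Most stretches of the window had a median below 0. In bins of 2 Mb from the proximal end, the median log2 fold change was -0.35 in the first bin (8 tested) and 1.12 in the second, which holds only Nr2f1 and A830082K12Rik. It was -0.36 in the third (8 tested), and the next bin holds Mef2c alone. The bin from 8 to 10 Mb had a median of 0.03 (4 tested), and that from 10 to 12 Mb held no member. The last 4 bins, with 5, 7, 11 and 14 tested members, had medians of -0.26, -0.18, -0.18 and -0.16. Neighbouring members had the same sign in 32 of 59 cases (54.2%), against 55.4% of neighbouring loci on all chromosomes and 62.2% in the rest of chromosome 13. Such a share rises when 1 sign is more common. Since 70.0% of members but 55.6% of all loci were negative, these shares are not directly comparable.

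Members that start back to back, within 1000 bases of each other on opposite strands, formed 8 pairs of tested loci. These included Arsk with Ttc37, Polr3g with Mblac2, Xrcc4 with Tmem167 and Ap3b1 with Gm9776. The pairs had the same sign in 5 of 8 cases (62.5%), against 61.7% of the 1061 such pairs on all chromosomes. As for neighbours, this share depends on how many loci are negative. The median difference within a pair was 0.28 on the log2 scale, against 0.27. The sulfatase gene Arsk and Ttc37, of the RNA-degrading SKI complex, were at -0.39 and 0.07, while Xrcc4 and Tmem167 were both negative at -0.37 and -0.18. Nr2f1 and A830082K12Rik are not among these 8, because their loci overlap by more than 1000 bases in the files.

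Leaving out 1 library at a time showed which of the 10 members with at least 2-fold differences rested on single libraries. Mctp1 and Rps23 changed sign without WT replicate 3 and WT replicate 1. Iqgap2 and Mef2c moved toward 0 without WT replicate 3 and stayed negative. Nr2f1 ran from 0.84 to 1.43, A830082K12Rik from 0.88 to 1.69 and Rasgrf2 from 1.34 to 2.20, with the lowest values of the first pair without WT replicate 3 and the highest of all 3 without WT replicate 1. Sv2c locus 2 ran from -1.46 to -0.98. The genotypes had no overlap in 8 members with all libraries, and in 20 without WT replicate 1, of which 7 were shared. The exception was 4833422C13Rik, which was no longer tested. Without WT replicate 3 there were 16 members without overlap, including all 8. Fewer libraries make overlap less likely, and no share of all loci is given beside these counts, so nothing is read from their rise.

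**Figure D5:**
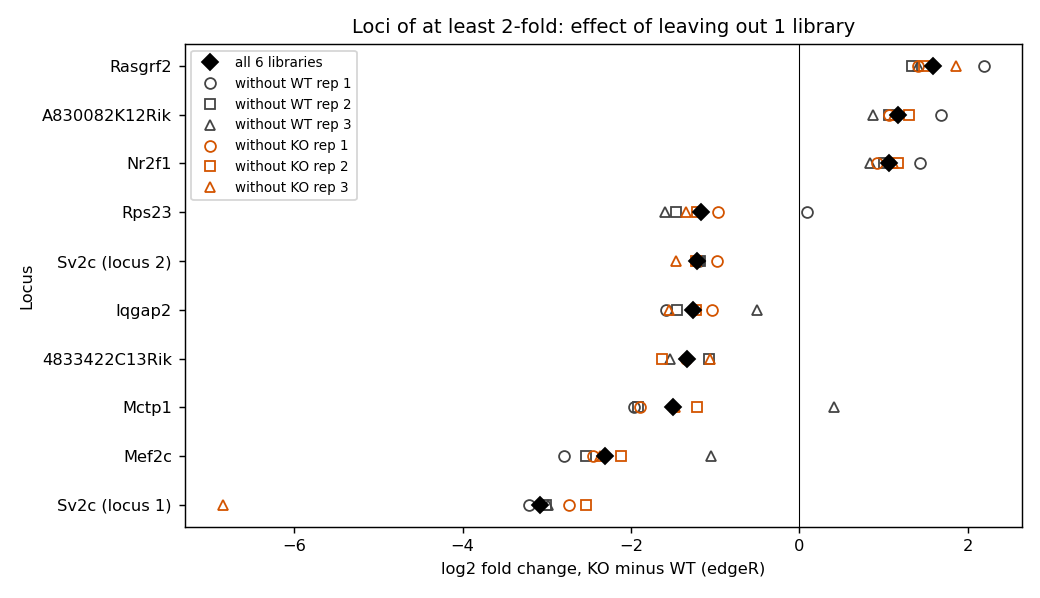
The log2 fold change (KO minus WT, edgeR) of the 10 members of at least 2-fold is shown with all 6 libraries (diamonds) and with each library left out (open symbols). Mctp1 crosses 0 without WT replicate 3 and Rps23 without WT replicate 1, while Nr2f1, A830082K12Rik and Rasgrf2 stay above 0 in every fit.

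Genes that work with members were also examined by list; those named here were picked after their values were seen. Of 17 tested genes of thrombin and protease-activated receptor signalling, F2r and F2rl1 included, 8 were positive and 9 negative, with a median of -0.17. In that list 2 genes were higher in every KO library and 1 lower, beside 5.18% and 5.44% of all loci. Procr, the protein C receptor gene, and Serpine2, which inhibits thrombin, were the higher ones, at 149 ± 55.8 against 53.7 ± 38.3 CPM and 952 ± 346 against 342 ± 163 CPM (SD, n = 3 each). Gna12, a G protein subunit gene, was the lower one, at 120 ± 1.08 against 186 ± 94.3 CPM. In the same list 3 genes were at least 2-fold higher and 2 at least 2-fold lower, beside 4.49% and 6.64% of all loci. Procr, Serpine2 and Thbd were the higher ones, Thbd (1.11 ± 0.64) with overlap. The arrestin genes Arrb1 and Arrb2 were the lower ones, at log2 fold changes of -1.14 ± 0.89 and -2.86 ± 1.22, with overlap. Their WT libraries were very uneven, at 73.5 ± 86.4 and 83.9 ± 103 CPM (SD, n = 3 each).

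The 14 MEF2 factors and regulators had 9 negative and a median of -0.05. Mef2c was the only one of them past 2-fold. In the MEF2 list 2 were higher in every KO library, beside 5.18% of all loci, 1 of them at a locus merged with another gene. Of the 14 mismatch repair and end-joining genes 11 were negative (median -0.30), where 55.6% of all loci were. In that list 5 were lower in every KO library, beside 5.44% of all loci. Among the 5, Pms2 lay at a locus merged with Rsph10b2. The methionine, betaine and folate list had 13 of 16 negative (median -0.30) and 3 lower in every KO library, beside the same 5.44%. The hyaluronan link list had 4 of 7 positive (median 0.24) and none without overlap. edgeR called 0 genes of these 5 lists at an adjusted p under 0.05.

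The authors' deposited table lists 38 members by name, 32 of them with a completed test. None of the 32 had a q-value under 0.05 in the authors' deposited table, where 17 of 8799 completed tests on all chromosomes did. For Nr2f1 the authors' deposited table gives mean FPKM of 12.6 in KO and 5.77 in WT, and for Cetn3 31.0 and 42.4.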

How the data were processed

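Messenger RNA of 3 WT and 3 KO libraries was analysed from 1 locus table per library. The submitters' processing notes name CASAVA 1.8.2, TopHat2 2.0.6, Cuffdiff 2.0.1 and mm10, without roles. Per the file headers, the deposited tables give an estimated count of fragments and an FPKM per locus. About 24% of counts above 0 were not whole, and counts were rounded. The authors' deposited comparison table gives mean FPKM, log2 fold change, p-value and q-value per gene; it was matched by name. Loci without a name (2667; 0.507% to 0.555% of fragments) and 16 loci marked HIDATA were left out. Loci marked FAIL, 5 of them members, were kept. The other 36812 loci entered edgeR 4.0.16 (R 4.3.3; filterByExpr, TMM, robust quasi-likelihood F test, Benjamini-Hochberg adjustment); the common biological coefficient of variation was 0.467. The script was tested on simulated data. Errors given as ± beside log2 fold changes are standard errors, and CPM use TMM-scaled library sizes.

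Members, lists and rules were chosen with earlier results of these data known. Genes were named where genotypes did not overlap at a mean of at least 2 CPM, for the 8 largest positive and 8 largest negative fold changes at that level, the 5 highest FPKM, the 2 members farthest out in each library, and the window's ends. Further members and partner genes were named by role, after their values were seen. A locus with 0 fragments was read as allowing up to 3 counts. Alternatives were DESeq2 1.42.0, limma 3.58.1 on log2(FPKM + 1), log2(FPKM + 0.1) or voom with quality weights, RLE and upper quartile scaling, other filters, and fewer loci or libraries. Over markers with a locus of their own (the endothelial marker Eng shares one with Ak1), endothelium summed to 6.70 to 23.8 CPM per library, epithelium to 1.40 to 10.4, neural cells to 56.0 to 149 (Nes apart, 0.878 to 3.17) and skeletal muscle to 11.9 to 99.2 (Des apart, 0.0805 to 0.913). Values of some genes are not reported here.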

Additional observations from a re-analysis of the deposited data

How the results depend on the processing

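No paired analysis was possible because the labels number no replicates. RLE and upper quartile scaling, DESeq2, no filter, quality weights, loci without FAIL marks or several names, and members of at least 100 fragments kept the 4 summary values within their limits. With at least 1 CPM in 3 libraries, 51 members remained, 4 at least 2-fold lower and 5 without overlap. limma on log2(FPKM + 1) gave a median of -0.05, with 1 member at least 2-fold higher and 1 lower, and on log2(FPKM + 0.1) a median of -0.12 with 3 lower. Pseudocounts shrink low genes. In both, 9 members had no overlap, 6 of them shared with CPM: Arsb, Scamp1 and Gpr98 joined, Papd4 and Rasgrf2 left. Leaving out each library in turn gave medians from -0.25 to -0.07, members at least 2-fold higher from 1 to 5 and lower from 5 to 8, and members without overlap from 9 to 20, where fewer libraries make overlap less likely. Without the 3 macrophage-rich libraries the median was -0.02, with 0 members at least 2-fold higher and 38 without overlap between 1 WT and 2 KO libraries. Among members of at least 2-fold, Mctp1, Iqgap2 and Rps23 changed sign. Mctp1 (-1.96 to 0.41 over single libraries left out) was at 0.41 without WT replicate 3 and 0.30 without the macrophage-rich libraries. Iqgap2 was at 0.02 without the macrophage-rich libraries, and Rps23 (-1.59 to 0.09 over single libraries left out) at 0.09 without WT replicate 1. Smaller differences changed sign too. Mblac2 went from -0.68 to 0.30 without WT replicate 3, for example, and Edil3 from -0.92 to 0.56 without the macrophage-rich libraries. The causes were not tested. Low depth limits Sv2c, 4833422C13Rik, Rasgrf2 and the untested F2rl2.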
